A study of Mus musculus with 4 samples.

Results

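The 10 genes described here mark the precursor stages of B cells and were read in leukocytes of the mouse dura mater, the outermost of the meninges. They were *Vpreb1*, *Vpreb2*, *Vpreb3*, *Igll1*, *Rag1*, *Rag2*, *Dntt*, *Ebf1*, *Cd93*, and *Lef1*, chosen by symbol from the 55401 genes of the deposited tables, with earlier results of these data known. WT C57BL/6J mice, described as male, were injected at 4 wk of age with a dose into the CSF of the cisterna magna, below the cerebellum, of an adeno-associated virus of serotype AAV9. In AAV-mVEGF-C mice the virus carried full-length mouse VEGF-C, the growth factor of lymphatic vessels, and in AAV-CTRL mice it carried soluble VEGFR-3 ectodomains that leave VEGF-C unbound. The vector, the route, and the strain were thus shared by both groups, and the control vector carried a transgene too. After perfusion, live CD45+ cells (all leukocytes) were sorted from the dura, and each library was made from a pool of 10 to 12 meningeal samples. Each group had 2 libraries, numbered 1 and 2, and a pair of values for a group is given in that order throughout. The time between injection and this sort was not given in the sources used here.

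B cells are built in the bone marrow through pro-B and pre-B stages, and B cell precursors also reside in the dura, which is joined to the marrow of the skull by channels through the bone. A pro-B cell cuts and joins the gene segments of its immunoglobulin heavy chain with the RAG1 and RAG2 recombinase, while the DNA polymerase TdT, the product of *Dntt*, adds bases at the joins. The finished heavy chain is then tested on the cell surface with a surrogate light chain, made of VpreB and λ5 (*Igll1*), and the genes of this surrogate are silent in mature B cells. The question was how these genes differed between mice treated with AAV-mVEGF-C and their controls. Mean *Rag1* was 5.03-fold higher in the controls. *Rag1*, *Rag2*, *Dntt*, and *Ebf1* were higher in both control libraries, as were 15.2% of all tested genes. *Vpreb1*, *Vpreb2*, *Vpreb3*, and *Igll1* differed more between the controls than between the groups, and *Cd93* and *Lef1* were level. None of these differences passed an adjusted p of 0.05 in edgeR with all 4 libraries and genes of low counts filtered out. Without that filter *Rag1* and *Ebf1* passed it, as did 0.659% of all genes, while DESeq2 passed none of the 10 genes.

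The surrogate light chain genes came first, since their reads can only be read with their sequences at hand. *Vpreb1* and *Vpreb2* are closely similar copies on chromosome 16, and *Igll1* lies beside *Vpreb1*. Their promoter windows are printed with that of *Rag1*, the member with the largest difference between the groups. Each window runs from 250 bases before to 50 bases after the transcription start, 5′ to 3′ on the gene's strand, and was taken from RefSeq on GRCm38.p6. The positions are chr16:16869206-16869505 (minus strand) for *Vpreb1*, chr16:17980315-17980614 (plus strand) for *Vpreb2*, chr16:16863936-16864235 (minus strand) for *Igll1*, and chr2:101649483-101649782 (minus strand) for *Rag1*. Capitals mark the letters CAGGTG, or CACCTG where the motif stands on the opposite strand, an E-box of the kind bound by E2A, a transcription factor that B cell development requires.
Vpreb1: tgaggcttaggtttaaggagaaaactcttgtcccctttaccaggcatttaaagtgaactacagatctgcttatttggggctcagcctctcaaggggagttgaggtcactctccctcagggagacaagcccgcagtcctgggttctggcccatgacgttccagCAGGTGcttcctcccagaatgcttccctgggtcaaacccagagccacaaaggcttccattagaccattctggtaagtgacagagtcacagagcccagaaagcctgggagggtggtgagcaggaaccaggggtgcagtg
Vpreb2: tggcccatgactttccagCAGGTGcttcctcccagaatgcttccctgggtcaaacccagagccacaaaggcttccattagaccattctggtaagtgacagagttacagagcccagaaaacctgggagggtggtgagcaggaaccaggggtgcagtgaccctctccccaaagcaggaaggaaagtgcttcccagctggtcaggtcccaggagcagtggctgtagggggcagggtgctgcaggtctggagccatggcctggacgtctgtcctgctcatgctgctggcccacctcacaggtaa
Igll1: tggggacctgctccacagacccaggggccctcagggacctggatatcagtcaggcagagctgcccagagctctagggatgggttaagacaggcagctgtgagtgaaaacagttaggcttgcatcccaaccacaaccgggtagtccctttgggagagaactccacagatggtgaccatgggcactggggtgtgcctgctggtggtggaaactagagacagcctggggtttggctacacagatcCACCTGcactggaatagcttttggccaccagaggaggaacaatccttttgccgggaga
Rag1: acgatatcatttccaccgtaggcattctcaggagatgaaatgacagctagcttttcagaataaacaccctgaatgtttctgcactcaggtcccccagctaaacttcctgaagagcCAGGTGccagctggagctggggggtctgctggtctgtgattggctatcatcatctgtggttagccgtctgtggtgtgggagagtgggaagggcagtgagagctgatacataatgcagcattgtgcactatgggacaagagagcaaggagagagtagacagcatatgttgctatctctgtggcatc
The E-box began 88 bases before the start in *Vpreb1*, 232 in *Vpreb2*, 8 in *Igll1*, and 135 in *Rag1*. A window was at hand for 9 of the 10 members, *Cd93* being the other, and *Ebf1* with 2 windows and *Lef1* with 4 brought the number to 13. The E-box stood in 5 of the 13 windows, those printed and 1 of the 4 windows of *Lef1*, against 6640 of 32851 mouse promoter windows (20.2%). The motif CCCNNGGG, searched on both strands and bound by EBF1, stood in 1 of the 13 windows, that of *Igll1*, and in 13.7% of all windows. These are matches of letters and not measured binding sites. The *Vpreb2* window repeated the *Vpreb1* window shifted by 144 bases, with 153 of 156 aligned bases identical (98.1%). The E-boxes of *Vpreb1* and *Vpreb2* lie in this repeat and are not separate matches. Some *Lef1* windows overlap too, so the 13 windows are not independent.

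The deposited reads per gene were estimates, which need not be whole, and came with a second table of TPM, which are scaled for gene length and for the size of the library. Between 32520649 and 46409685 reads were assigned to genes per library. Levels of a gene were compared between libraries as CPM, that is reads scaled to a common library size after TMM normalization, and between genes in TPM. AAV-CTRL 1 stood apart from the other libraries, with 20990 detected genes against 29221 to 37512 elsewhere in spite of the deepest sequencing, and a correlation across genes of its log2 CPM with the others of 0.925 to 0.934, against 0.968 to 0.973 among the others. The CD45 gene *Ptprc* was at 191 to 215 TPM in all libraries. *Vegfc* itself was at 208 and 106 reads after AAV-CTRL against 65 and 59 after AAV-mVEGF-C, lower in both treated libraries (log2 fold change -1.13, SE 0.45, edgeR adjusted p = 0.999), so that reads of these sorted leukocytes gave no check of the treatment label. The study's methods name male mice, yet *Xist*, a transcript of the inactive X chromosome, was at 53.6 to 68.7 TPM in the libraries while 4 Y-linked genes summed to at most 0.532 TPM. This is the pattern of female cells, which the stated sex does not match.

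Averaged over the 4 libraries, the members ran from *Cd93* at 16.1 TPM through *Vpreb3* (10.3 TPM), *Ebf1* (9.66 TPM), *Lef1* (9.40 TPM), *Dntt* (4.31 TPM), *Rag1* (2.01 TPM), *Igll1* (1.75 TPM), *Vpreb1* (1.14 TPM), and *Rag2* (0.555 TPM) to *Vpreb2* at 0.298 TPM. Among neighbors in this order, the ranges over the libraries were separate for *Lef1* and *Dntt* and overlapped for every other pair. In 9 of the 10 members the highest CPM was that of AAV-CTRL 2, the exception being *Rag2*, whereas AAV-CTRL 2 was highest for 24.8% of all tested genes. This shared peak set the width of the control group for most members.

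**Figure D1:**
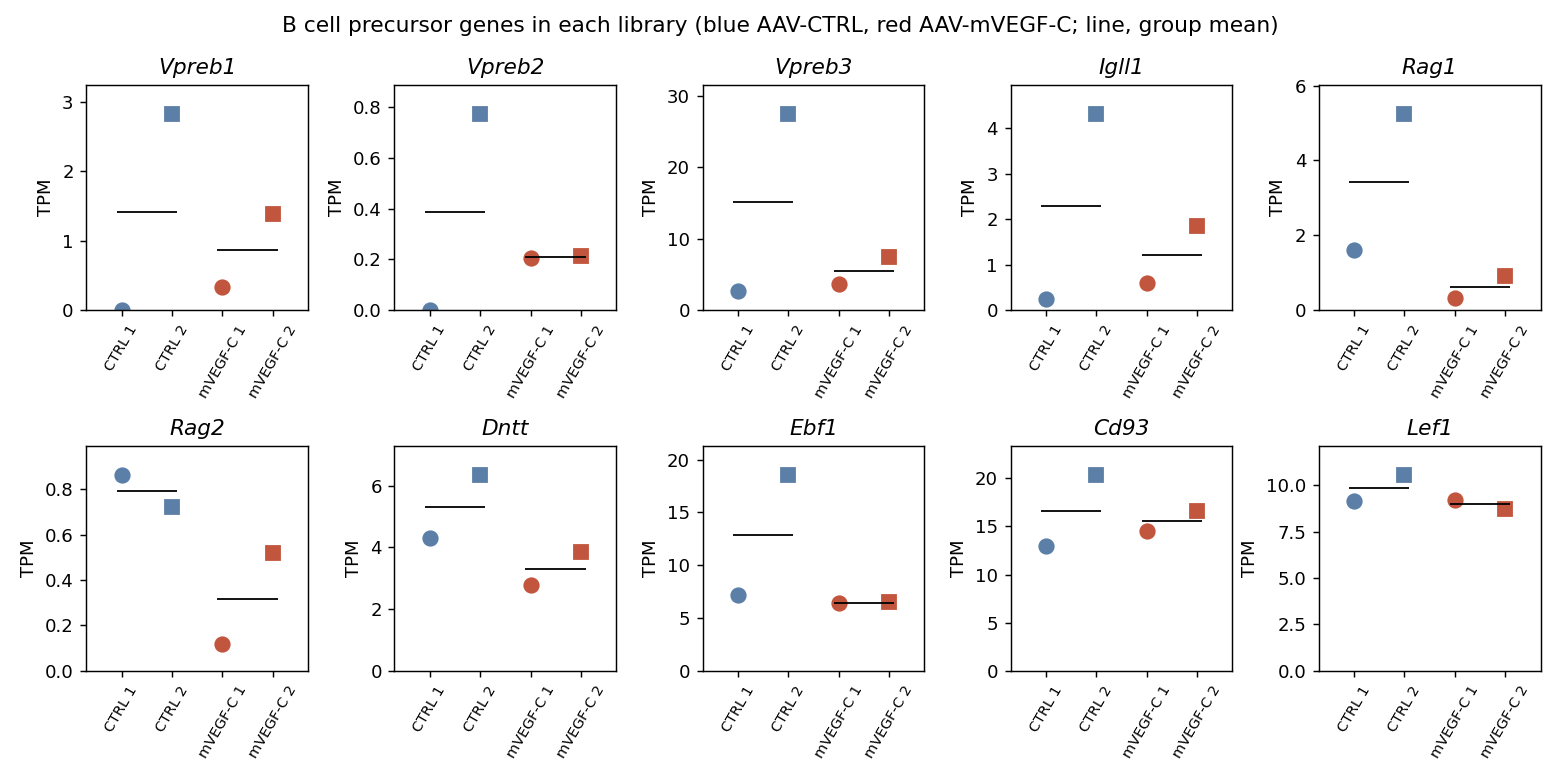
TPM (y axis, from 0) of the 10 genes in each of the 4 libraries (x axis), with AAV-CTRL in blue, AAV-mVEGF-C in red, and a line at each group mean. AAV-CTRL 2 is the highest point in every panel but that of *Rag2*, and both controls lie above both AAV-mVEGF-C points for *Rag1*, *Rag2*, *Dntt*, and *Ebf1*.

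The edgeR quasi-likelihood test, fitted across 19806 genes with Benjamini-Hochberg adjustment, called 0 of the 9 members it could test at an adjusted p of 0.05, and 0 of all genes (0.0%). At an unadjusted p under 0.05 it passed 523 genes (2.64%), 234 of them lower after AAV-mVEGF-C (1.18%), and 2 members, *Rag1* and *Ebf1*, both lower. *Vpreb2* had too few reads for the test. The log2 fold change of AAV-mVEGF-C over AAV-CTRL was below 0 in 7 of the 9 members and above 0 in 2, with a median of -0.68, against 0.0034 over all tested genes. Both controls lay above both AAV-mVEGF-C libraries in 4 members, *Rag1*, *Rag2*, *Dntt*, and *Ebf1*, an arrangement met in 15.2% of all tested genes. The opposite arrangement, found in 16.8% of genes, was seen in 0 members. Other settings changed the members called. Without the filter on low counts edgeR called *Rag1* and *Ebf1* (0.659% of genes called), whereas 0 members were called by DESeq2 (0.189% of genes), with a replicate block (0.0555%), or without AAV-mVEGF-C 1 (0.0097%). Leaving out AAV-CTRL 1 called *Vpreb3*, *Rag1*, and *Ebf1* (1.85% of genes), leaving out AAV-CTRL 2 called *Vpreb1* and *Rag2* (9.19%), and leaving out AAV-mVEGF-C 2 called *Rag1* (0.284%). In bulk libraries, fewer precursor cells and less RNA per cell cannot be told apart.

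**Figure D2:**
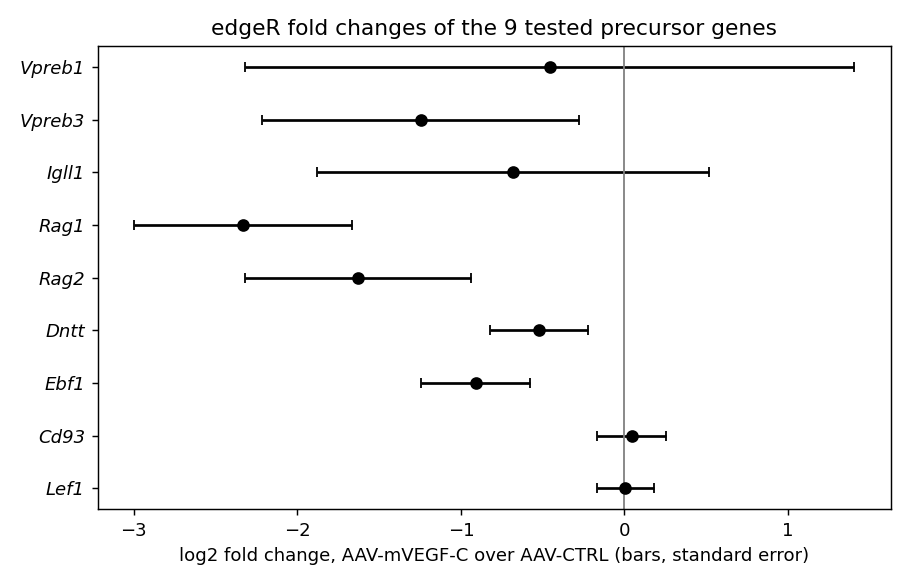
edgeR log2 fold change of AAV-mVEGF-C over AAV-CTRL (x axis) with its standard error (bars) for the 9 tested genes. The point estimates run from -2.33 for *Rag1* to 0.04 for *Cd93*, and the bars of *Vpreb1* and *Igll1* are the widest.

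Among the tested members, *Rag1* and *Rag2* had the largest log2 fold changes. *Rag1* encodes the subunit of the recombinase that cuts the DNA, and *Rag2* its partner, and the genes are neighbors on chromosome 2 that are transcribed toward each other. *Rag1* (ENSMUSG00000061311.6, chr2:101638282-101649501, minus strand, GRCm38) had 655 and 1482 reads after AAV-CTRL against 116 and 270 reads after AAV-mVEGF-C, or 14.6 and 43.1 CPM against 2.97 and 8.52 CPM. Both controls were above both treated libraries, and the higher treated library was nearer to AAV-CTRL 1 than the controls were to each other. The means were 28.9 ± 20.1 and 5.74 ± 3.92 CPM (SD, n = 2 libraries each), a 5.03-fold difference. The edgeR log2 fold change was -2.33 (SE 0.67, unadjusted p = 0.0125, adjusted p = 0.999). It remained below 0 when any library was left out, at -1.34 without AAV-CTRL 2, -1.75 without AAV-mVEGF-C 1, -2.93 without AAV-CTRL 1, and -3.27 without AAV-mVEGF-C 2. Its edgeR adjusted p then passed 0.05 without AAV-CTRL 1 (4.85e-07, in a fit that called 1.85% of genes) and without AAV-mVEGF-C 2 (0.0130, 0.284% of genes).

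*Rag2* (ENSMUSG00000032864.4, chr2:101624718-101632529, plus strand) had 164 and 65 reads after AAV-CTRL against 20 and 41 after AAV-mVEGF-C. These were 3.67 and 1.89 CPM against 0.512 and 1.29 CPM. The controls were again above the treated libraries, but AAV-CTRL 1 was the higher control, the reverse of *Rag1*. The log2 fold change was -1.63 (SE 0.69, edgeR unadjusted p = 0.0557, adjusted p = 0.999). In TPM, the ratio of *Rag1* to *Rag2* was 1.85 and 7.27 after AAV-CTRL against 2.68 and 1.74 after AAV-mVEGF-C, so that AAV-CTRL 2 stood apart from the other libraries. Both genes lie within the span of a minus-strand transcript, *B230118H07Rik*, which was at 174 and 103 against 122 and 109 reads (log2 fold change -0.07).

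*Dntt* (ENSMUSG00000025014.13, chr19:41029275-41059525, plus strand) was at 490 and 517 reads after AAV-CTRL against 294 and 336 after AAV-mVEGF-C. In CPM it was 11.0 and 15.0 against 7.53 and 10.6, so that the groups were separate, though AAV-CTRL 1 and AAV-mVEGF-C 2 nearly met. The log2 fold change of *Dntt* was -0.52 (SE 0.30, edgeR unadjusted p = 0.132, adjusted p = 0.999). Summed over *Rag1*, *Rag2*, and *Dntt*, the recombination genes were at 6.75 and 12.3 TPM after AAV-CTRL against 3.20 and 5.26 TPM after AAV-mVEGF-C. The means were 9.52 ± 3.93 and 4.23 ± 1.46 TPM (SD, n = 2 each), and the exact two-sided permutation test gave p = 0.333, the smallest that 2 libraries against 2 allow. The log2 ratio of the sums was -1.17, and it was -2.18 for *Rag1* and *Rag2* alone, since *Dntt* made up much of the sum.

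The surrogate light chain genes had a different order of libraries. Reads of *Vpreb1* (ENSMUSG00000059305.12, chr16:16868403-16870843, minus strand) and *Vpreb2* (ENSMUSG00000059280.4, chr16:17980428-17981273, plus strand) had been divided between the copies, since each gene's value had decimals while their sums were whole. Of the 100-base windows of a *Vpreb1* transcript, 97 of 667 (14.5%) occurred letter for letter in *Vpreb2*, so the division between the copies is uncertain and the sum is the firmer value. The sum was 0 reads in AAV-CTRL 1 and 94 in AAV-CTRL 2, and 18 and 46 in AAV-mVEGF-C 1 and 2. As CPM of all assigned reads this was 2.82 in AAV-CTRL 2 (95% Wilson interval 2.30 to 3.45), 0.473 in AAV-mVEGF-C 1 (0.299 to 0.748), and 1.41 in AAV-mVEGF-C 2 (1.06 to 1.89), and the count of 0 in AAV-CTRL 1 allows up to 0.0646 (3 reads). The controls were therefore both the lowest and the highest library, further apart than counting error, which is all that these intervals cover. AAV-CTRL 1 also had the fewest detected genes of the libraries (20990, against 29221 to 37512). The part of this in its count of 0 was not tested. *Vpreb1* took 58.8 to 86.4% of the sum in the 3 libraries that had reads. The edgeR log2 fold change of *Vpreb1* was -0.46 with an SE of 1.86 (unadjusted p = 0.815, adjusted p = 0.999), and it turned to 7.90 when AAV-CTRL 2 was left out, which leaves as control only the library at 0, so that neither value gives a direction.

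*Igll1* encodes λ5, which completes the surrogate light chain with VpreB. It (ENSMUSG00000075370.12, chr16:16860671-16863985, minus strand) had 11 and 142 reads after AAV-CTRL against 30 and 62 after AAV-mVEGF-C, or 0.246 and 4.13 CPM against 0.768 and 1.96 CPM. Both treated libraries lay between the controls, as they did for the VpreB pair. The controls differed 16.8-fold from each other, and the log2 fold change between the groups was -0.68 (SE 1.20, edgeR unadjusted p = 0.591, adjusted p = 0.999). It turned to 2.46 without AAV-CTRL 2, to 0.19 with a replicate block, and to 0.50 in limma-voom, so that *Igll1* had no settled direction either.

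*Vpreb3*, whose product assists the assembly of the precursor receptor inside the cell and which stays on into later B cell stages, repeated this order. It (ENSMUSG00000000903.3, chr10:75943057-75949657, plus strand) had 75 and 571 reads after AAV-CTRL against 100 and 163 after AAV-mVEGF-C, or 1.68 and 16.6 CPM against 2.56 and 5.14 CPM. The treated libraries lay between the controls, which differed 9.90-fold. Its log2 fold change was -1.25 (SE 0.97, edgeR unadjusted p = 0.246, adjusted p = 0.999), and it was 1.21 without AAV-CTRL 2 and -2.13 without AAV-CTRL 1 (adjusted p = 0.000136, in a fit that called 1.85% of genes). *Vpreb3* shared no 50-base stretch with *Vpreb1*, *Vpreb2*, or *Igll1*. Summed, the 4 genes were at 2.97 and 35.4 TPM after AAV-CTRL against 4.81 and 10.8 TPM after AAV-mVEGF-C. The means were 19.2 ± 22.9 and 7.82 ± 4.26 TPM (SD, n = 2 each), and the groups overlapped (exact two-sided permutation p = 1.0).

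*Ebf1* encodes the transcription factor that commits progenitors to the B lineage, and it is also expressed in mature B cells and in stromal and mural cells. It (ENSMUSG00000057098.14, chr11:44617317-45008091, plus strand) had 1661 and 2569 reads after AAV-CTRL against 1246 and 874 after AAV-mVEGF-C. In CPM the values were 37.2 and 74.7 against 31.9 and 27.6, so that the groups were separate and AAV-CTRL 1 lay close to the treated libraries. The means were 55.9 ± 26.5 and 29.7 ± 3.06 CPM (SD, n = 2 each), and the log2 fold change was -0.91 (SE 0.33, edgeR unadjusted p = 0.0338, adjusted p = 0.999). It was -1.35 without AAV-CTRL 1 (adjusted p = 2.04e-05) and -0.31 without AAV-CTRL 2 (adjusted p = 0.257), the latter in a fit that called 9.19% of genes. Stromal and mural markers, which included collagen genes, summed to 94.5 and 169 TPM after AAV-CTRL against 50.9 and 79.1 TPM after AAV-mVEGF-C, and mature B cell markers to 205 and 357 TPM against 195 and 223 TPM. Both lists were highest in AAV-CTRL 2, as *Ebf1* was, and their part in its values was not tested.

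The remaining members did not separate the groups. *Cd93*, the surface receptor detected by the antibody AA4.1 on immature B cells, is found on endothelial and myeloid cells as well. It (ENSMUSG00000027435.8, chr2:148436640-148443563, minus strand) had 5411 and 5910 reads after AAV-CTRL against 5519 and 5094 after AAV-mVEGF-C, or 121 and 172 CPM against 141 and 161 CPM. The treated libraries lay between the controls, and the log2 fold change was 0.04 (SE 0.21, edgeR adjusted p = 0.999). *Lef1*, a transcription factor of pro-B cells that T cells express too, had 1256 and 1111 reads after AAV-CTRL against 1180 and 963 after AAV-mVEGF-C. In CPM *Lef1* (ENSMUSG00000027985.14, chr3:131110471-131224356, plus strand) was 28.1 and 32.3 against 30.2 and 30.4, with both treated libraries between the controls and a log2 fold change of 0.00 (SE 0.17, edgeR adjusted p = 0.999).

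Since the B lineage as a whole could differ between libraries, the members were set against *Cd79a*, which encodes a signaling chain of the B cell receptor and is expressed from the pro-B stage onward. *Cd79a* was at 36.6 and 101 TPM after AAV-CTRL against 32.8 and 39.0 TPM after AAV-mVEGF-C, a log2 fold change of -0.76 (SE 0.42, edgeR adjusted p = 0.999). Per 100 CPM of *Cd79a*, a measure chosen after values had been seen, *Rag1* was at 21.4 and 24.5 CPM after AAV-CTRL against 4.49 and 10.9 CPM after AAV-mVEGF-C. The controls, which had differed 2.94-fold in *Rag1* itself, lay close together on this scale and above both treated libraries. *Ebf1* was at 54.2 and 42.4 CPM against 48.2 and 35.2 CPM per 100 CPM of *Cd79a*, so that its groups overlapped. *Rag2* (5.35 and 1.07 against 0.774 and 1.65 CPM) and *Dntt* (16.0 and 8.54 against 11.4 and 13.5 CPM) also overlapped on this scale. Of the 10 members, *Rag1* alone had both controls higher per *Cd79a*, an arrangement met in 0.52% of all tested genes on this scale, and *Cd93* alone had both controls lower, at 177 and 97.6 against 214 and 205 CPM, as in 35.0% of genes. The divisor *Cd79a* was itself highest in AAV-CTRL 2, which lowers every scaled value of that library. *Vpreb3* (2.45 and 9.43 against 3.87 and 6.56 CPM) and *Igll1* (0.359 and 2.35 against 1.16 and 2.50 CPM) were still lowest in AAV-CTRL 1.

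**Figure D3:**
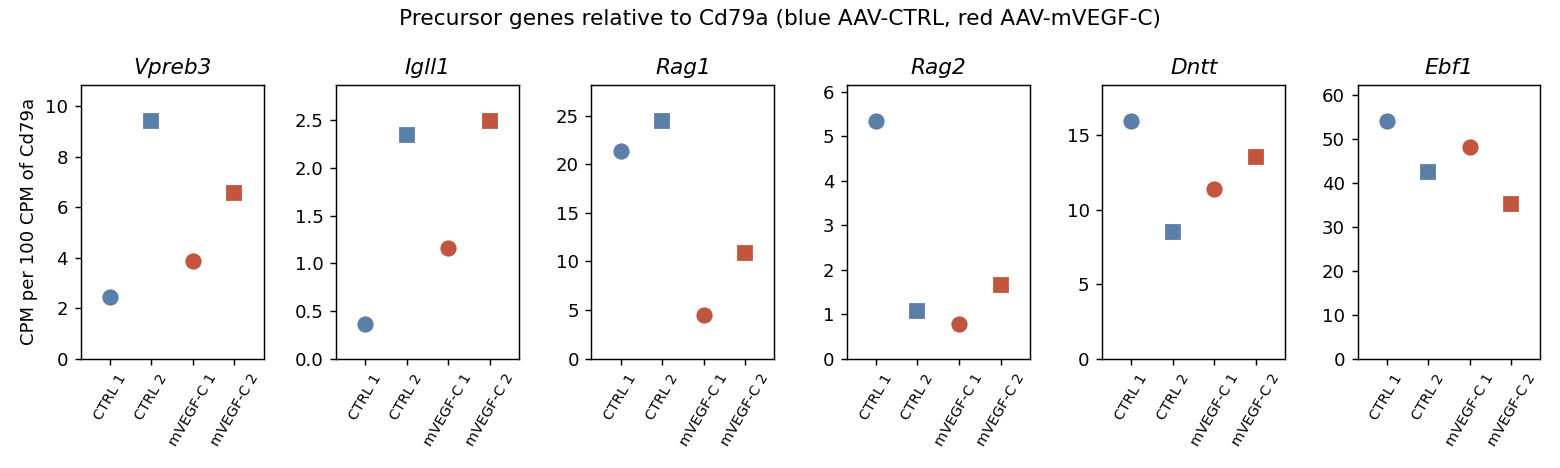
CPM of 6 precursor genes per 100 CPM of *Cd79a* (y axes, from 0) in each library (x axis), AAV-CTRL in blue and AAV-mVEGF-C in red. *Rag1* separates the groups, at 21.4 and 24.5 against 4.49 and 10.9, and the other 5 genes overlap.

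The summed TPM of *Vpreb1*, *Vpreb2*, *Igll1*, *Rag1*, *Rag2*, and *Dntt* over that of *Cd79a* and *Cd79b* was 0.117 and 0.123 after AAV-CTRL against 0.0816 and 0.135 after AAV-mVEGF-C. The treated libraries lay on both sides of the controls (log2 ratio of the groups -0.19, exact two-sided permutation p = 1.0). Computed from CPM in place of TPM, this ratio was higher in both controls (log2 ratio -0.76, exact two-sided permutation p = 0.333, the smallest possible here), so that the result depends on the scale. CPM are not scaled for gene length, so *Rag1* weighs more in that ratio. In the controls *Rag1* was at 14.6 and 43.1 CPM, and *Dntt* at 11.0 and 15.0 CPM. In TPM *Rag1* was at 1.6 and 5.2 there, and *Dntt* at 4.3 and 6.3.

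The genes that work with the members were read from 5 lists, and 0 of their genes were called by edgeR. Of the pre-B cell receptor signaling list, 11 of 14 genes were lower and 3 higher, with a median log2 fold change of -0.13. The kinases *Syk* (75.3 and 90.4 TPM in the controls, 75.1 and 73.7 TPM after AAV-mVEGF-C) and *Lyn* (96.4 and 126 against 103 and 101 TPM) had log2 fold changes of -0.03 and -0.07, while *Cd79a* had the largest. Of the V(D)J joining and repair list, 8 of 13 were lower and 5 higher (median -0.04), and 5 had both controls higher (38.5% of the list, against 15.2% of all genes). In 2 genes both controls were lower (15.4%, against 16.8% of all genes), namely *Xrcc4*, a partner of the joining ligase (log2 fold change 0.57, SE 0.30), and the DNA polymerase gene *Poll* (0.11, SE 0.25). Among those with higher controls were *Lig4*, the ligase that closes the joins, at 1.93 and 2.34 against 0.869 and 1.34 TPM (log2 fold change -0.70, SE 0.31), and *Hmgb1*, a DNA-bending protein that assists the recombinase, at 150 and 89.9 against 58.4 and 57.3 TPM (-0.59, SE 0.22, edgeR unadjusted p = 0.0339, adjusted p = 0.999). *Hmgb2*, of the same family, was at 238 and 203 against 191 and 184 TPM and overlapped in CPM (-0.28, SE 0.27). *Hmgb1* and *Hmgb2* are abundant in dividing cells of every kind, and the list of dividing cell markers summed to 336 and 213 TPM in the controls and 230 and 203 TPM in the treated libraries, its part in these values not having been tested.

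Of the B lineage transcription factors, 9 of 15 were lower and 6 higher (median -0.09). The largest difference was in *Id3*, an inhibitor of E2A, at 8.14 and 11.2 TPM after AAV-CTRL against 4.37 and 5.73 TPM after AAV-mVEGF-C (log2 fold change -0.81, SE 0.28, edgeR unadjusted p = 0.0276, adjusted p = 0.999). *Ikzf1* and *Spi1*, which act across blood lineages, had log2 fold changes of 0.02 and 0.00. Of the IL-7 and early progenitor signaling list, 8 of 13 were higher and 5 lower (median 0.05), and *Mycn* had the largest difference (-0.86, SE 0.47), next to *Il2rg* (-0.07) and *Ccnd3* (-0.13). *Il7r*, the receptor chain for the growth factor of precursors, was at 33.1 and 38.5 against 47.1 and 37.4 TPM. Of 9 further surface and stage genes, 6 were lower and 3 higher (median -0.36). *Cplx2* was at 1.50 and 2.91 against 0.818 and 1.07 TPM (-1.07, SE 0.35, edgeR unadjusted p = 0.0232, adjusted p = 0.999), *Cd24a*, high on precursors and on many other immature blood cells, had both controls higher (-0.42, SE 0.22), and *Cxcr4*, which holds precursors in the marrow, had both controls lower (0.23, SE 0.16). None of these differences passed the adjusted threshold.

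**Figure D4:**
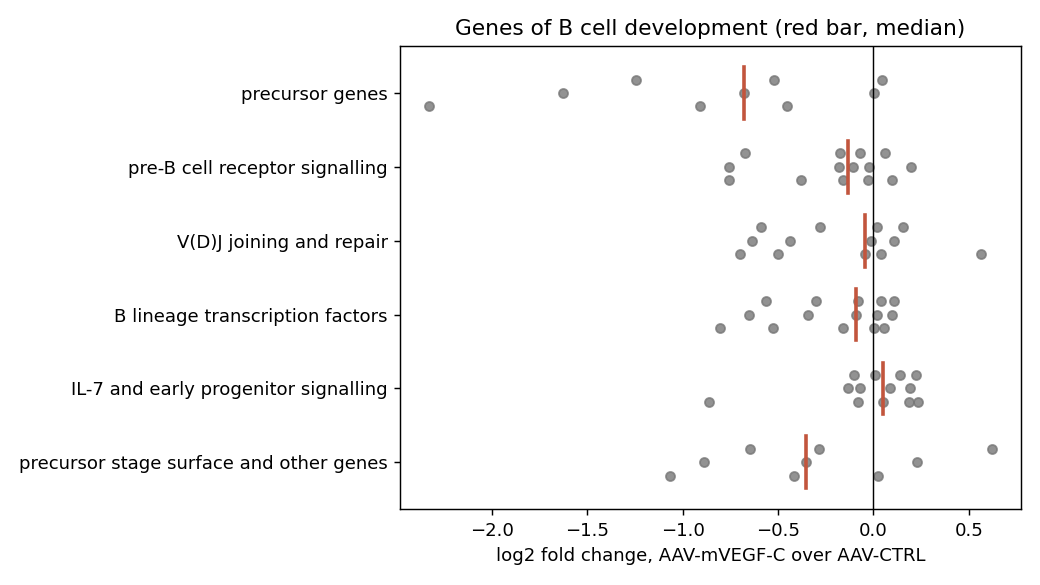
edgeR log2 fold change of AAV-mVEGF-C over AAV-CTRL (x axis) of each tested gene (points) in the precursor genes and 5 lists of genes of B cell development (y axis), with the median as a red bar. The median is -0.68 for the precursor genes and lies between -0.36 and 0.05 in the other lists.

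Marker lists of other cells were summed beside the members, including endothelial, stromal, mural, and mature erythroid cells, which lack CD45 and which the gate should remove. Several members are shared with such cells: *Rag1*, *Rag2*, and *Dntt* with immature thymocytes, *Dntt* with early progenitors, *Lef1* with T cells, and *Cd93* with endothelial and myeloid cells. Of the thymocyte markers, *Ptcra* had 0 reads in 3 libraries and 2 reads in AAV-mVEGF-C 2. The T cell list was at 262 and 289 TPM in the controls and 322 and 328 TPM in the treated libraries, with both controls lower. The part of T cells and thymocytes in the values of the members was not tested. Plasmacytoid dendritic cell markers were at 28.0 and 60.9 against 25.3 and 33.1 TPM, highest in AAV-CTRL 2 like most members. NK cell markers were at 42.6 and 45.1 against 22.7 and 33.8 TPM, and monocyte and macrophage markers at 2745 and 2708 against 2162 and 2695 TPM. Endothelial markers were at 26.3 and 24.6 against 15.1 and 17.4 TPM, and their part in the values of *Cd93* was not tested. Plasma cell markers were at 238 and 273 against 506 and 515 TPM, and *Ighm*, the heavy chain shared by pre-B, mature B, and plasma cells, was at 390 and 1099 against 915 and 1015 TPM.

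Markers of marrow cells were uneven between libraries as well. Erythroid markers summed to 208 and 249 TPM after AAV-CTRL against 38.5 and 76.3 TPM after AAV-mVEGF-C, and 8 of the 10 genes had both controls higher, against 15.2% of all tested genes. Markers of neutrophil progenitors were at 1431 TPM in AAV-CTRL 1, 332 in AAV-CTRL 2, and 693 and 530 in the treated libraries, so that the control lowest in surrogate light chain was the highest in these. Megakaryocyte and platelet markers were at 57.0 and 91.7 against 36.2 and 62.4 TPM. Markers of stem and progenitor cells were at 86.8 to 99.8 TPM in all libraries. The part of these cells in the values of the members was not tested.

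**Figure D5:**
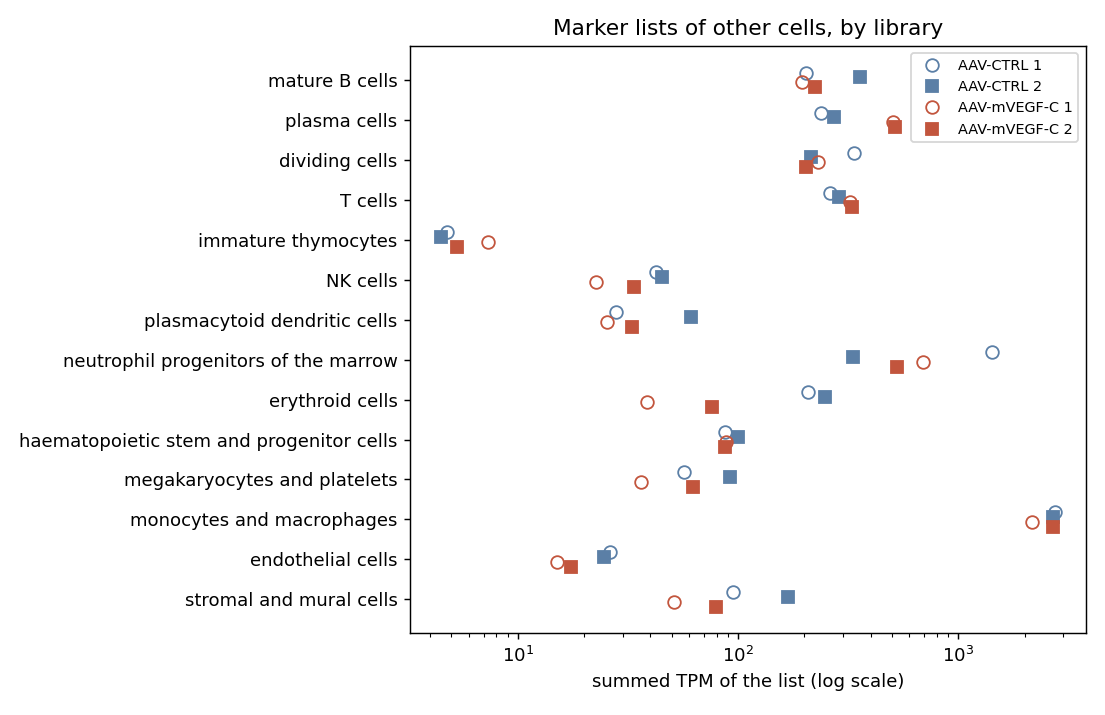
Summed TPM (x axis, log scale) of 14 marker lists (y axis) in the 4 libraries, AAV-CTRL in blue and AAV-mVEGF-C in red, with open circles for replicate 1 and squares for replicate 2. Erythroid and stromal lists are higher in both controls, plasma cell and T cell lists are lower in both, and the neutrophil progenitor list is highest in AAV-CTRL 1 at 1431 TPM.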

How the data were processed

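The authors pooled CD45+ dural cells of 10 to 12 meningeal samples per library, made stranded total RNA libraries with the SMARTer Pico Input kit, and sequenced paired reads. They deposited estimated counts per gene, without normalization, of which 8.18% had decimals, and TPM values for the same genes. Per the labels' processing notes, FastQC, Trimmomatic, DRAGEN, and Picard were used with mm10. Their versions are not given in the sources used here.

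Estimated counts were rounded and tested with edgeR 4.0.16 in R 4.3.3 (quasi-likelihood test, TMM, filterByExpr, Benjamini-Hochberg adjustment at 0.05, all 4 libraries, no covariate). The SE is the size of the log2 fold change over the square root of F. Single values were compared with exact permutation tests. DESeq2 1.42.0 (the tool named by the study), limma 3.58.1, other scalings and filters, and a replicate block were alternatives. The edgeR fit was tested on simulated data with 200 changed genes. The floor for a count of 0 was 3 reads, and Wilson intervals are at 95%. Coordinates are from GENCODE M21 on GRCm38, which holds 54349 of the 55401 identifiers.

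The members and lists were chosen with earlier results of these data known. Beside the members, the text names from each list of B cell genes the pair with the highest mean TPM, the gene with the largest log2 fold change, the 5 genes most like the surrogate light chain, *Ptprc* and *Vegfc* as checks, and defining markers of other cells at 0 reads in a library. *Il7r*, *Ighm*, *Xist*, *Xrcc4*, *Poll*, and the overlapping gene *B230118H07Rik* are outside this rule, their values having been seen when they were chosen. The labels number the pools by experiment, and p-values measure the spread between these pools.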

Additional observations from a re-analysis of the deposited data

How the results depend on the processing

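With each library left out in turn, which leaves a group with 1 library assumed to vary like the other group, the genes called ranged from 2 (without AAV-mVEGF-C 1) to 2058 (without AAV-CTRL 2), and the precursor genes called from 0 to 3. These were *Vpreb3*, *Rag1*, and *Ebf1* without AAV-CTRL 1, *Vpreb1* and *Rag2* without AAV-CTRL 2, and *Rag1* without AAV-mVEGF-C 2. The median of the precursor genes ranged from -1.41 to 0.12, that of all genes being 0.13 at the latter. The log2 fold change ranged from -1.88 to 7.90 for *Vpreb1*, -2.13 to 1.21 for *Vpreb3*, -1.62 to 2.46 for *Igll1*, -3.27 to -1.34 for *Rag1*, -2.43 to -1.09 for *Rag2*, -0.78 to -0.27 for *Dntt*, -1.35 to -0.31 for *Ebf1*, -0.20 to 0.33 for *Cd93*, and -0.11 to 0.12 for *Lef1*. The log2 ratio of the summed surrogate light chain genes ranged from -2.18 to 1.40, of the recombination genes from -1.57 to -0.67, and of precursor to B cell receptor genes from -0.56 to 0.17. The ratio of the surrogate light chain genes, -1.29 in all libraries, was -0.83 without *Vpreb3* and -0.50 with the replicate block. Without a filter on low counts, 268 genes were called, 2 of them precursor genes (*Rag1*, adjusted p = 2.03e-13, and *Ebf1*, 0.00322, in edgeR), and DESeq2 called 77 genes and 0 precursor genes. The median of all genes was 0.22 without the filter and 0.25 in DESeq2. The labels give each group an experiment 1 and 2, but the column names of the controls carry shifted numbers, unlike those of AAV-mVEGF-C, so the pairing of the pools was not settled. Same-numbered libraries deviated with r = -0.134 in log2 CPM and -0.0353 in log2(CPM + 1). With the replicate block, 11 genes were called, and *Rag1* had an edgeR adjusted p of 0.0545 (log2 fold change -2.32). A crossed replicate block, added after seeing the data, called 54 genes, and the likelihood ratio test, also added, called 56. *Vpreb1* turned to 1.32 with the block, 1.09 with the crossed block, 0.57 in limma on log2(TPM + 0.1), and 2.32 in limma-voom. *Igll1* turned to 0.19, 0.17, and 0.50 with the block, the crossed block, and voom. *Cd93* turned to -0.063 and -0.065 and *Lef1* to -0.12 and -0.13 in limma on log2(TPM + 1) and log2(TPM + 0.1), and *Lef1* to -0.017 without the filter. *Rag1*, *Rag2*, *Dntt*, and *Ebf1* were below 0 under every alternative run. The cause of the changes was not tested.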

Other observations

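Among all tested genes, those whose log2(CPM + 1) over the 4 libraries was most like that of the summed CPM of *Vpreb1*, *Vpreb2*, and *Igll1* were *Gemin4*, *Igkv4-59*, *Sox4*, *Sardh*, and *Vpreb3*, with root mean square differences of 0.147, 0.232, 0.265, 0.281, and 0.287. *Sox4*, a transcription factor required for early B cell development, was lowest in AAV-CTRL 1 at 9.30 CPM and highest in AAV-CTRL 2 at 44.4 CPM, with both treated libraries between. *Igkv4-59*, a variable segment of the κ light chain, was at 6.26 and 49.3 CPM after AAV-CTRL and at 8.27 and 23.5 CPM after AAV-mVEGF-C. *Gemin4*, part of the machinery that assembles spliceosomal particles, was at 0 and 7.21 CPM against 0.845 and 2.87 CPM. The likeness rests on 4 libraries and mostly on the contrast of AAV-CTRL 2 with AAV-CTRL 1.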
